A study of Arabidopsis thaliana with 14 samples.

Results

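Aminoacyl-tRNA synthetase genes of Arabidopsis thaliana were examined for regions enriched in H3K36me3, histone H3 trimethylated at lysine 36, in plants kept at 16 °C and in plants moved to 25 °C for 1 day. The members were all nuclear protein-coding genes whose RefSeq product name on TAIR10.1 contains "tRNA synthetase" or "tRNA ligase". This rule took 64 of 27444 genes, without use of the H3K36me3 data. The name was then checked against the annotation note of each gene. The notes describe 35 members as synthetases, 10 as short or partial relatives of synthetases and 5 as carrying a single domain related to synthetases. The other 14 have notes that name no synthetase function, such as SAMBA, a regulator of the anaphase-promoting complex, and these are called name-only members. The 35 synthetases serve 18 amino acids, with no gene for tryptophan or proline.

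Aminoacyl-tRNA synthetases join an amino acid to its tRNA, the step at which the genetic code is read into protein. They fall into structural classes I and II, whose catalytic domains are unrelated. Plants make protein in the cytosol, the chloroplasts and the mitochondria, and the synthetases for all of these are encoded in the nucleus, often as a cytosolic enzyme and an enzyme sent to organelles. Loss of an organellar enzyme often stops ovule or embryo development, which gave the OVA (OVULE ABORTION), EMB (EMBRYO DEFECTIVE) and EDD1 genes their names. H3K36me3 lies on the bodies of transcribed genes and in plants sits towards the 5′ end.

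The regions come from ChIP-seq (sequencing of immunoprecipitated chromatin) of Col-0 plants grown for 5 weeks at 16 °C with 8 h light and 16 h dark. Leaves were taken off with forceps, so the tissue was enriched for the shoot apical meristem but also held young leaves, and each sample was 0.5 g of plant material. At each temperature 4 samples were precipitated for H3K36me3 and 3 for total H3, and the 25 °C plants had spent 1 day at that temperature. For 1 of the 4 H3K36me3 samples at 25 °C the antibody label names H3 while the title names H3K36me3, and its part in the results was not tested because the deposited regions pool the samples of a temperature. There are therefore 2 lists of regions, with no value per sample, and every difference below compares 1 list with 1 list, without a replicate check and without a test.

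The lists hold 50167 nuclear regions at 16 °C and 52432 at 25 °C, which cover 10.05% and 13.4% of the nuclear genome. The share of the summed signal lying on the chloroplast genome was 34.9% at 16 °C and 26.2% at 25 °C, and the nuclear share was 63.1% and 72.0%. These shares moved together with the wider nuclear cover, and their part in it was not tested. Of 5 shoot meristem markers, 3 carried a region at 16 °C and 1 at 25 °C, none wider than 100 bp, and CLV3 carried none. Leaf markers had a region in 2 of 5 genes in each list, root markers in 2 and 1 of 7, and seed markers in 2 and 1 of 6. The best covered of all these markers was SCR, from the root list, with 15.9% and 35.3% and a region of 820 bp at 25 °C, and RCA, from the leaf list, had 6.11% and 21.9%. No meristem marker had more than 5.15% in either list, so cover of these markers did not bear out the labelled tissue. The leaf markers LHCB1.1 and CAB3 had no region in either list. Whether the cover of such genes follows the tissue was not tested.

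A gene was called marked when at least 1 bp of its body lay in a region, and its cover is the percent of the gene body inside regions. In the 16 °C list 50 of the 64 members (78.1%) were marked, and in the 25 °C list 56 (87.5%). With regions above the median −log10 p of their list alone, this order turned, with 48 and 47 members marked, beside 43.5% and 46.8% of all genes. Without that filter, the background was 56% of all nuclear protein-coding genes in the 16 °C list and 59.5% in the 25 °C list. The members are longer than most genes, with a median length of 2952 bp against 2078 bp and a median of 8 exons against 4. The median cover of the members was 28.7% at 16 °C and 35.8% at 25 °C, where all genes had 4.22% and 7.37%. Cover was higher at 25 °C in 46 members, lower in 11 and equal in 7, so that 71.9% were higher beside 47.3% of all genes and 17.2% were lower, as among all genes (17.2%). The median difference (25 °C minus 16 °C) was 6.27 percentage points in the members and 0 in all genes.

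These totals join unlike genes, and the values differed by role (plot of cover by role and protein length). The synthetases were set apart as a group after the data were seen, and the later results on the synthetases alone use that group. Of the 35 synthetases, 32 were marked at 16 °C and 34 at 25 °C. Their median cover was 32.3% and 42.3%, and cover was higher at 25 °C in 29, lower in 5 and equal in 1. Of the 10 partial relatives, 3 were marked at 16 °C and 5 at 25 °C, with a median cover of 0 and 0.697%. All 5 single-domain members were marked in both lists, and 10 and 12 of the 14 name-only members. Gene length differs between the roles as well. The 15255 genes within the length range of the synthetases had 74.3% marked in the first list and 77.4% in the second, with a median difference of 3.58 points against 10.8 points in the synthetases. Their median cover was 15.8% and 24.8%. Cover was higher at 25 °C in 62.1% of them and lower in 20.0%, beside 82.9% and 14.3% of the synthetases. This set was not matched in length, with a median of 2846 bp and 6 exons against 3537 bp and 12 exons in the synthetases. Proteins under 200 residues were encoded by 10 members, of which 3 and 5 were marked, and the remaining 54 had 47 and 51 marked.

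**Figure D1:**
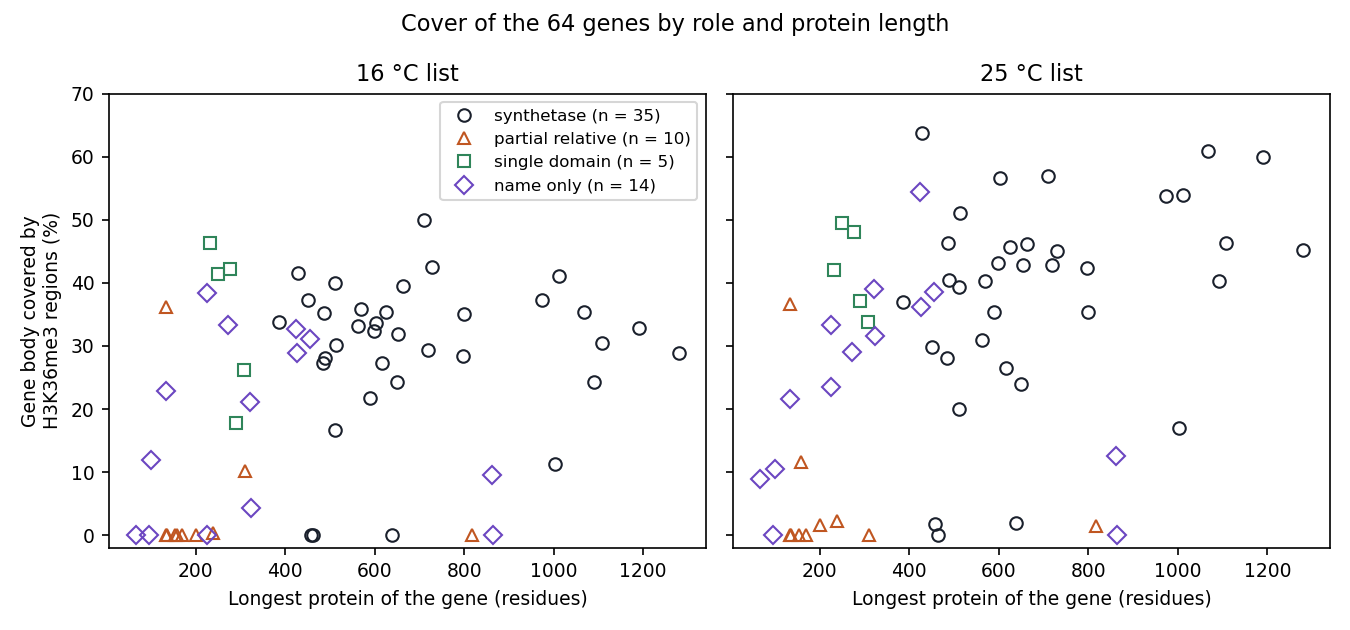
Cover of each of the 64 genes by H3K36me3 regions (percent of the gene body, y axis) against the length of its longest protein (residues, x axis), with the 16 °C list on the left and the 25 °C list on the right. Each symbol is 1 gene and its shape and colour give the role in the annotation note. Most of the 10 partial relatives sit at or near 0, and 32 of 35 synthetases at 16 °C and 34 at 25 °C lie above 0.

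The 3 synthetases without a region at 16 °C were all of class II, and 2 of them have a better covered gene for the same amino acid among the members. AT1G29870 is a glycyl-tRNA synthetase gene of chromosome 1 (TAIR10, chr1:10456902-10458782, minus strand) with no region in either list. Its neighbour AT1G29880 (chr1:10459457-10462967, minus strand), a longer glycyl-tRNA synthetase, was covered over 42.4% at 16 °C and 45.0% at 25 °C. AT1G17960, a cytosolic threonyl-tRNA synthetase gene, had no region at 16 °C and a single region of 50 bp at 25 °C, whereas AT5G26830, for the same amino acid, had 49.9% and 56.9%. NS2, an asparaginyl-tRNA synthetase, also had no region at 16 °C and a region of 60 bp at 25 °C.

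The calls of AT1G17960 and NS2 at 25 °C rest on the stretches printed here, which are the whole regions and lie in coding sequence, so all bases are in capitals (gene strand, 5′ to 3′, capitals mark coding bases). They are shorter than the DNA wrapped on a nucleosome. The AT1G17960 region is chr1:6183201-6183250 and starts 556 bp into the gene, and the NS2 region is chr3:2376451-2376510 and starts 465 bp into the gene (TAIR10, both minus strand).
AT1G17960 region at 25 °C: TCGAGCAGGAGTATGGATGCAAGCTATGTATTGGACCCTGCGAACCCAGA
NS2 region at 25 °C: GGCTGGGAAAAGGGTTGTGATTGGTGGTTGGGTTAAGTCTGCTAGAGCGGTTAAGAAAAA

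Near-identical genes can share reads, so the likeness of these pairs was measured. The coding sequences of AT1G29880 and AT1G29870 were identical at 83.1% of 1362 aligned bases, and those of AT5G26830 and AT1G17960 at 80.8% of 842 aligned bases. The closest aligned 60-base stretch within an exon of each pair is shown, because it is where reads would be hardest to place, with the differing bases in capitals (gene strand, 5′ to 3′). The Gly stretches are chr1:10460836-10460895 and chr1:10457223-10457282, both on the minus strand. The Thr stretches are chr5:9440642-9440701 on the plus strand and chr1:6182025-6182084 on the minus strand.
AT1G29880 (Gly): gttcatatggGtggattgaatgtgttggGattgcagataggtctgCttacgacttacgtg
AT1G29870 (Gly): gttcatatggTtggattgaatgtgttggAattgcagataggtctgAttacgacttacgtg
AT5G26830 (Thr): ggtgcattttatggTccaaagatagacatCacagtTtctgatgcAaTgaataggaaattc
AT1G17960 (Thr): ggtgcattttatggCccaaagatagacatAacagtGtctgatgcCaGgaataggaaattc
The Gly stretches differ at 3 bases and the Thr stretches at 5. No 50-base window of AT1G29870, AT1G29880, AT1G17960 or NS2 occurred a second time in the nuclear genome, on either strand. Among the other synthetases the share of such repeated windows was at most 2.40%. The 25 °C region of AT1G29880 that begins 2097 bp into the gene overlaps the printed stretch, and the matching bases of AT1G29870 carried no region.

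Cover was also split by structural class and by place in the cell. All 17 class I genes were marked in both lists, with cover higher at 25 °C in 14 and lower in 3, and a median cover of 30.4% and 40.3%. Of the 18 class II genes, 15 and 17 were marked, with cover higher in 15, lower in 2 and equal in 1, and a median cover of 34.4% and 45.3%. The notes place 19 synthetases in an organelle, sometimes together with the cytosol, and 13 in the cytosol alone. Median cover was 35.2% and 46.2% for the first and 28.4% and 39.3% for the second. Cover was higher at 25 °C in 15 organellar genes and 11 cytosolic genes, and lower in 4 and 1.

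**Figure D2:**
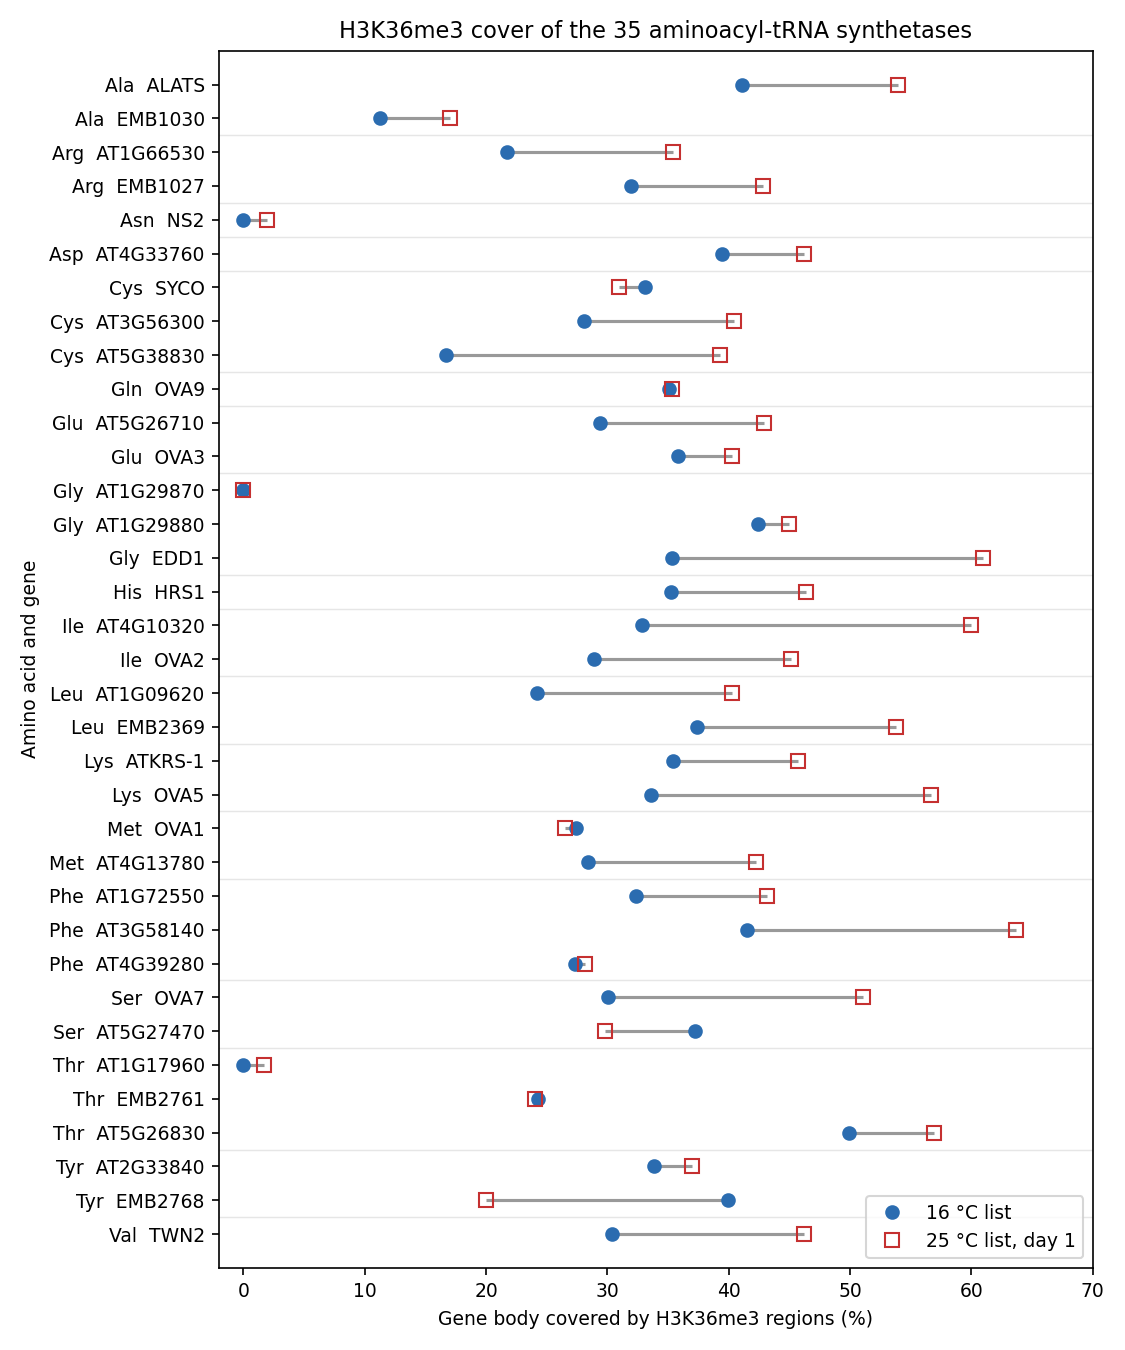
Percent of the gene body inside H3K36me3 regions (x axis) for each of the 35 synthetases, grouped by amino acid (y axis), with filled circles for the 16 °C list and open squares for the 25 °C list. Each value comes from 1 pooled list, so there are no error bars. Squares lie to the right of circles in 29 genes, and EMB2768 has the longest line in the other direction, from 39.9% to 20.0%.

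The 6 largest differences upwards among the synthetases belonged to genes for isoleucine, glycine, lysine, cysteine, phenylalanine and serine. AT4G10320, a cytosolic isoleucyl-tRNA synthetase, had 32.8% covered at 16 °C and 59.98% at 25 °C. In its first 1000 bp the order was the other way, with 97.8% and 95.8%, so the added cover lay further into the gene. EDD1, the organellar glycyl-tRNA synthetase, had 35.3% and 60.9%. At 16 °C 12 regions lay on it, none wider than 990 bp. At 25 °C 5 regions lay on it, and the widest spanned 2400 bp, reaching from 29 bp before the gene start to 2370 bp into the gene. Of the 12 regions at 16 °C, the first 5 lay inside this single region at 25 °C.

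OVA5, the organellar lysyl-tRNA synthetase, had 33.6% covered at 16 °C and 56.7% at 25 °C, and its widest region measured 1120 bp and then 1430 bp. AT5G38830, a cytosolic cysteinyl-tRNA synthetase outside the rule for named genes, had 16.7% and 39.3%, from 3 regions in the 16 °C list and a single region of 1090 bp in the other. AT3G58140, a phenylalanyl-tRNA synthetase of organelles, had 41.5% and 63.7%, the highest cover of any member at 25 °C. OVA7, a seryl-tRNA synthetase of organelles, had 30.1% and 51.1%, and its widest region was 530 bp and 1430 bp. At 16 °C its first region began well inside the gene, and at 25 °C its first 1000 bp were covered in full, against 51.6% at 16 °C. OVA7 and AT3G58140 each overlap another annotated gene at an end, and no covered base of either lay in the overlap.

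The synthetase with the largest difference downwards was EMB2768, an organellar tyrosyl-tRNA synthetase. Its cover was 39.9% at 16 °C and 20.0% at 25 °C, from 900 bp and 450 bp. The widest region of the gene was 470 bp at 16 °C, centred in coding sequence, and 240 bp at 25 °C, centred in the 5′ UTR. Region height, the highest read coverage in a region, went both ways. The region in its 5′ UTR had a height of 227.3 at 16 °C and 613.5 at 25 °C, and the widest region at 16 °C, in coding sequence, had 407.6 against 264.7 in its 25 °C partner. A pair of the 16 °C regions had no partner at 25 °C, one of 170 bp that began 26 bp into the gene and one of 110 bp in coding sequence. The coding one is printed (chr3:570981-571090, TAIR10, minus strand, 1296 to 1405 bp into the gene, coding bases in capitals, gene strand).
EMB2768 region at 16 °C: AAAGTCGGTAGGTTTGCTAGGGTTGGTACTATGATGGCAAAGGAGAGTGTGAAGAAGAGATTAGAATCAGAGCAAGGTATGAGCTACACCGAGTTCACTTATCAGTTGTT
The cytosolic seryl-tRNA synthetase AT5G27470 also had less cover at 25 °C, 37.2% against 29.8%. Its 16 °C regions reached back to 227 bp before the gene start, and its first 25 °C region began 193 bp into the gene. The 16 °C region across the start of AT5G27470, with a height of 479.1, had a single 25 °C partner, which did not reach the gene. The 25 °C region that began 193 bp in had a height of 611.1, against 396.8 in its 16 °C partner. Both genes stayed lower at 25 °C in all 6 settings of region filter and gene part that were tried for each member.

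Serine and tyrosine thus had an organellar and a cytosolic gene that differed in opposite directions. For serine the difference was 21.0 points in OVA7 and -7.46 points in AT5G27470. For tyrosine it was -20.0 points in EMB2768 and 3.14 points in AT2G33840, the cytosolic gene. Methionine had -0.855 points in the organellar OVA1 and 13.9 points in the cytosolic AT4G13780. Cysteine had -2.17 points in the organellar SYCO, and 22.6 and 12.3 points in the cytosolic AT5G38830 and AT3G56300. Threonine had -0.283 and 7.03 points in the organellar EMB2761 and AT5G26830, and 1.70 points in the cytosolic AT1G17960. The signs of AT2G33840 and OVA1 turned in the first 1000 bp, to -7.9 and 1.8 points, so the tyrosine and methionine contrasts depended on the gene part. Those of SYCO, EMB2761 and AT5G26830 turned there as well. No test of these differences was possible with 1 list per temperature.

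The highest mean cover over both lists was that of AT5G26830, with 49.9% and 56.9%, a threonyl-tRNA synthetase whose note gives an organelle. Its first 1000 bp were covered over 100% and 96.6%, so there the order turned. It also held one of the tallest regions of the group, 827.5 at 16 °C and 1007 at 25 °C, above 98.3% and 98.8% of the nuclear regions of the same list. ALATS, an alanyl-tRNA synthetase, had 41.1% and 54.0%. Its widest region was 1220 bp at 16 °C, from 459 to 1678 bp into the gene. At 25 °C it was another, of 1520 bp, from 2239 to 3758 bp, and the region that began at 459 bp measured 820 bp. The other 3 of the 5 highest mean covers were those of AT3G58140, EDD1 and AT4G10320, described above.

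Wide regions were more frequent at 25 °C in these genes, as they were in all genes. A region over 1000 bp lay in 8 of the 35 synthetases at 16 °C (22.9%) and in 19 at 25 °C (54.3%), where 4.22% and 11.1% of all genes had such a region. Among genes within the length range of the synthetases, 6.06% and 16.8% had one. After EDD1 the widest regions were those of EMB2369, a leucyl-tRNA synthetase (1000 bp at 16 °C, 1860 bp at 25 °C), and AT4G33760, an aspartyl-tRNA synthetase (900 bp and 1550 bp), whose cover was 39.5% and 46.2%. AT1G29880 and ALATS followed, each with 1520 bp at 25 °C. At least 50% of the gene body was covered in none of the synthetases at 16 °C and in 8 at 25 °C. The background for that limit was 3.75% and 10.2% of all genes.

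The number of regions in the synthetases did not differ, with 148 in each list, although the covered bases were 44746 at 16 °C and 60722 at 25 °C. In the 25 °C list 35 of the 148 regions (23.6%) overlapped 2 or more regions of the 16 °C list, and the most that a single region joined was 5. In the other direction 24 of the 148 regions of 16 °C (16.2%) overlapped 2 or more regions of 25 °C. Over all nuclear regions these shares were 14.6% and 8.83%. In the 48 pairs of the members in which a region overlapped a single region of the other list and no other, 30 were wider at 25 °C, 15 narrower and 3 equal. The wider ones made up 66.7% of those that differed, near the 62.6% over the 12832 such pairs of all nuclear regions. The median width ratio was 1.21 in the members and 1.18 in all pairs.

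**Figure D3:**
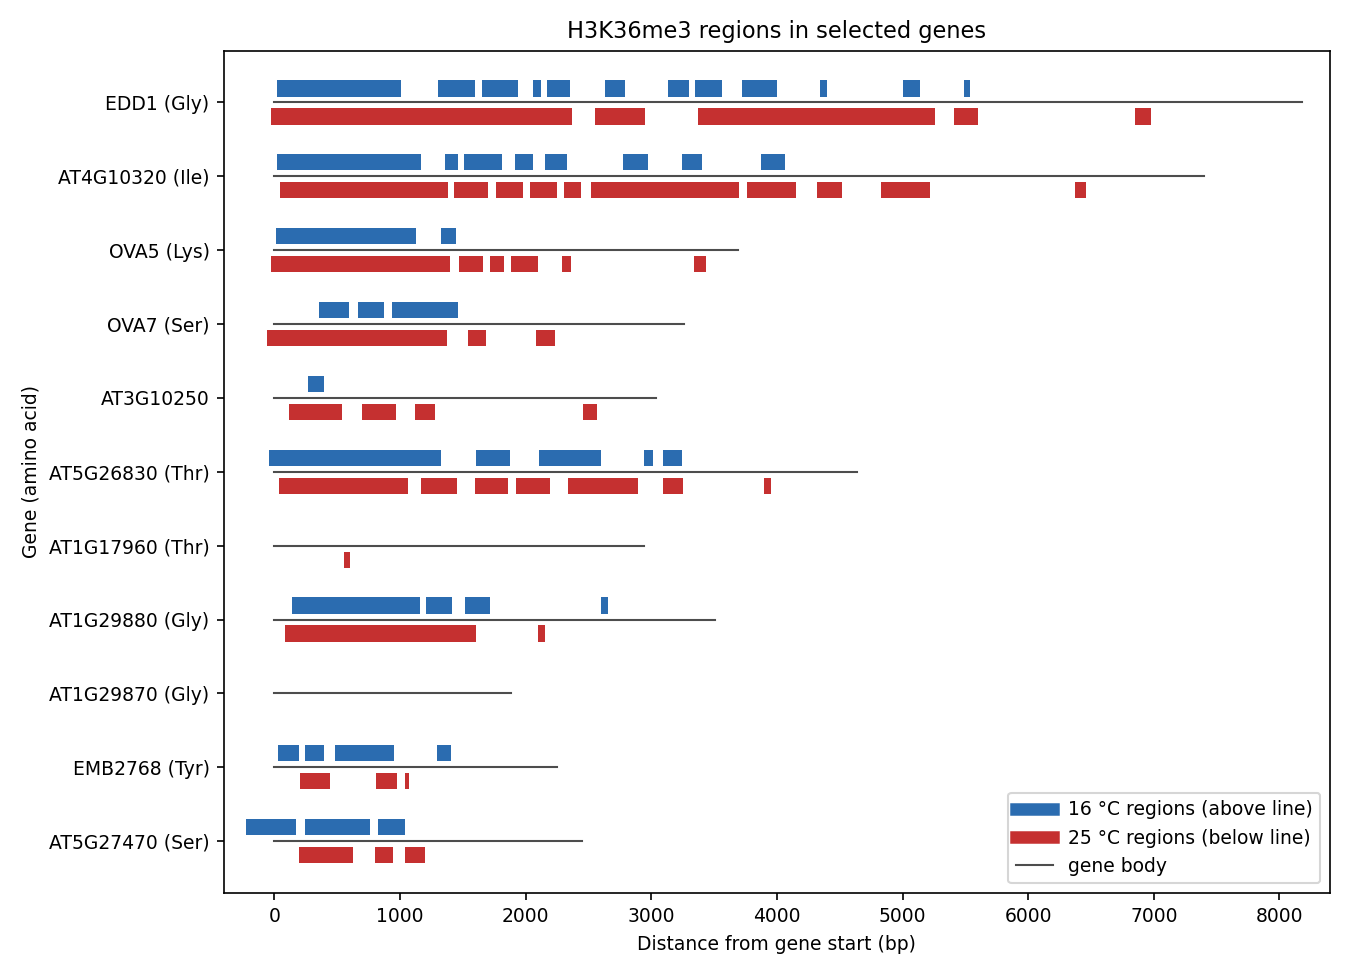
H3K36me3 regions of 11 genes by distance from the gene start (bp, x axis), with the 16 °C regions in blue above and the 25 °C regions in red below the line that marks the gene body. EDD1 carries 12 regions at 16 °C and 5 at 25 °C, with a single red region of 2400 bp at its start. AT1G29870 carries none, and the regions of EMB2768 and AT5G27470 cover less at 25 °C.

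The regions lay in the 5′ part of the synthetase genes (plot of regions along synthetase genes). From 500 to 600 bp into the gene 88.6% of the 35 synthetases had a region in each list, where all genes reaching that far had 38.6% at 16 °C and 44.4% at 25 °C. From 600 to 2300 bp into the gene, each bin had a region in more synthetases at 25 °C, and some of the wider gaps are given here. From 1200 to 1300 bp a region was present in 57.1% of the synthetases at 16 °C and 77.1% at 25 °C, and from 2100 to 2200 bp in 26.5% and 50% of those long enough. All genes had 24.8% and 34.0% in the first of these bins and 13.8% and 19.3% in the second. From 2300 to 2400 bp the order in the synthetases turned, with 34.4% at 16 °C and 31.25% at 25 °C, beside 12.8% and 18.6% of all genes. From 2600 to 2700 bp 25.8% of the synthetases had a region in each list. In the last 100 bp of the gene 2.86% of the synthetases had a region at 16 °C and 5.71% at 25 °C, beside 5.11% and 5.93% of all genes.

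**Figure D4:**
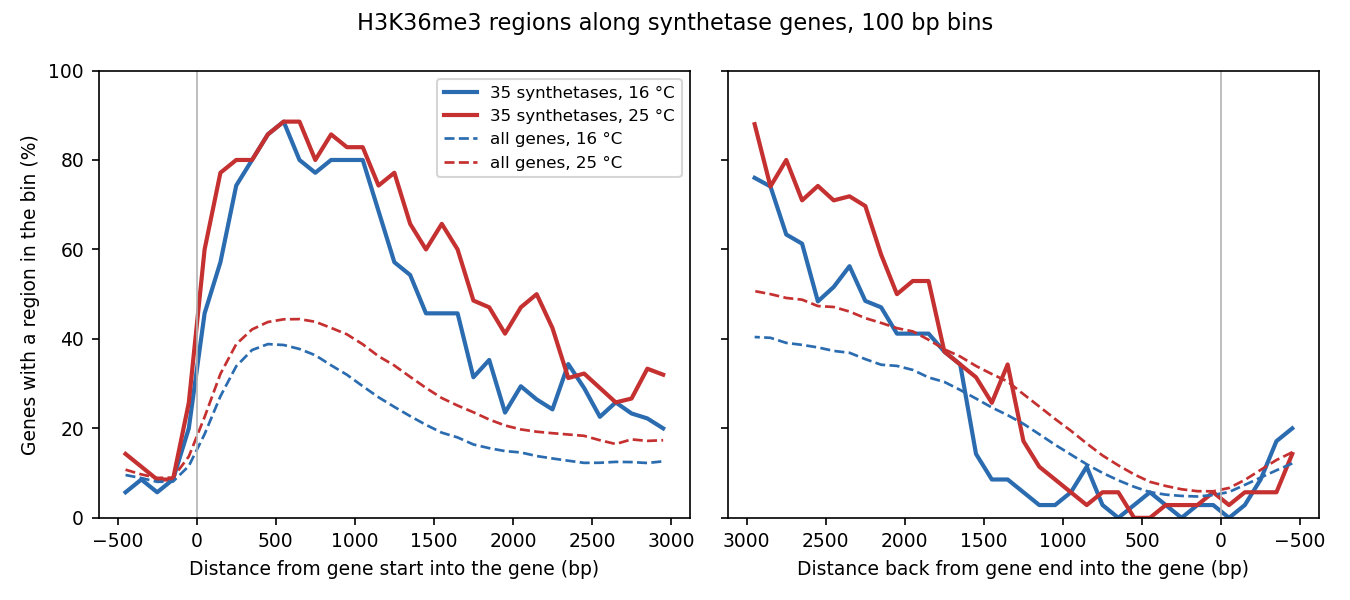
Percent of genes with an H3K36me3 region in each 100 bp bin (y axis) by distance from the gene start (left) or back from the gene end (right), in bp. Solid lines are the 35 synthetases, dashed lines all nuclear protein-coding genes, blue 16 °C and red 25 °C, and bins inside the gene count only genes that reach them. The solid lines peak at 88.6% from 500 to 600 bp and fall to 11.4% or less in the last 1000 bp of the genes.

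OVA2, an isoleucyl-tRNA synthetase whose note gives no place in the cell, stood apart from this pattern. None of its first 1000 bp was covered at 16 °C and 2.30% at 25 °C, while its whole body had 28.9% and 45.1%. The annotated start of OVA2 lies within another gene of the same strand, AT5G49040, over 576 bp. The cover of coding sequence in the synthetases was 29.8% at 16 °C and 40.2% at 25 °C, and that of introns 35.3% and 48.9%. Their 5′ UTRs had 42.4% and 49.5%, and their 3′ UTRs 0.977% and 2.096%. Over all genes coding sequence had 16.6% and 23.0%, introns 21.7% and 29.8%, 5′ UTRs 22.1% and 27.2%, and 3′ UTRs 3.55% and 4.63%. The synthetases thus had the higher values except in the 3′ UTRs, where they had the lower. More of the synthetases were marked at all, 91.4% and 97.1% against 56% and 59.5% of all genes. They were also longer, with a median of 3537 bp against 2078 bp. No background matched for marking or length was used for these values.

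The 6 OVA members were all marked in both lists. Cover was higher at 25 °C in 5 and lower in OVA1, and the median difference was 10.3 points. OVA9, the glutaminyl-tRNA synthetase, had 35.1% at 16 °C and 35.4% at 25 °C, and its difference of 0.265 points turned negative in 3 of the 6 settings. OVA3, the organellar glutamyl-tRNA synthetase, had 35.8% and 40.3%, but 90.1% and 83.1% in its first 1000 bp. The 6 members with an EMB or EDD1 name were all marked too, 4 of them higher and 2 lower at 25 °C, with 24.3% and 24.0% in EMB2761, a threonyl-tRNA synthetase.

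OVA1, the organellar methionyl-tRNA synthetase, is in the list of DiS (differentially spliced) genes of the study for a retained intron. It had 27.4% covered at 16 °C and 26.5% at 25 °C, a difference that turned in the first 1000 bp, where the values were 41.2% and 43.0%. Its regions moved along the gene more than the total shows. At 16 °C it had 4 regions that began 378, 878, 1458 and 1688 bp into the gene, and at 25 °C 5 regions that began 98, 578, 1008, 2088 and 3418 bp in. Of the 4 regions at 16 °C, 2 had a single partner at 25 °C and 2 had none.

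The differences of the remaining synthetases complete the account. Apart from EMB2369, they are outside the rule for named genes. AT1G66530 and EMB1027 for arginine had differences of 13.7 and 10.9 points, and AT3G56300, AT5G38830 and SYCO for cysteine 12.3, 22.6 and -2.17 points. AT5G26710 for glutamate had 13.5 points, HRS1 for histidine 11.2 points and ATKRS-1 for lysine 10.2 points. AT1G72550 and AT4G39280 for phenylalanine had 10.8 and 0.807 points. AT1G09620 and EMB2369 for leucine had 16.1 and 16.4 points and TWN2 for valine 15.8 points. EMB1030, the organellar alanyl-tRNA synthetase, was the least covered synthetase marked in both lists, with 11.3% and 17.0%.

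Partial relatives were the least covered role. AT5G02680, whose product is called a methionine-tRNA ligase, was the only one above 12% in either list, with 36.1% at 16 °C and 36.6% at 25 °C. It overlaps another gene by 515 bp, in which 151 of its 1200 covered bp at 25 °C lay. AT3G23145, AT3G42723 and AT1G27160 had a region at 25 °C only, covering 11.6%, 1.39% and 1.68%. In AT2G35080 6 bp were covered at 16 °C, against 50 bp at 25 °C. AT1G49930, AT1G53705, AT5G19720 and AT5G38750 had none in either list. AT5G38750, named as asparaginyl-tRNA synthetase family, is among the DEGs (differentially expressed genes) of the study 1 day after the temperature change.

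AT5G10880, named as related to tRNA synthetases, was the only member marked at 16 °C alone, where 5.78% of all genes were, while 7 members were marked at 25 °C alone, beside 9.32% of all genes. Its cover was 10.2% and 0, from a single region of 120 bp with a height of 300.2. The region is chr5:3432921-3433040 (TAIR10, plus strand), 228 to 347 bp into the gene, and is printed because the call rests on it, with coding bases in capitals and intron bases in lower case.
AT5G10880 region at 16 °C: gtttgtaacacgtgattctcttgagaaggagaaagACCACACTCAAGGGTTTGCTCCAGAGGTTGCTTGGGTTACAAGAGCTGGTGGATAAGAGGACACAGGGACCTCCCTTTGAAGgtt

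The 5 single-domain members carry a YbaK domain, an anticodon-binding domain or the second additional domain of threonyl and alanyl synthetases. AT4G16510, with a YbaK domain, which in bacteria removes wrong amino acids from tRNA, had a single region of 1500 bp at 16 °C, the widest of any member in that list. Its cover was 46.3% at 16 °C and 42.0% at 25 °C, and it stayed lower at 25 °C in all 6 settings. AT3G16565, the gene with the second additional domain, is also on the list of DiS genes. Its cover was 17.7% and 37.1%, and its widest region was 190 bp and 710 bp. AT1G44835, AT4G23620 and AT5G66860 had differences of 7.67, 5.83 and 8.15 points.

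Among the name-only members, AT3G10250 had the largest difference of all 64 genes, with 4.28% covered at 16 °C and 31.6% at 25 °C. It had a single region of 130 bp in an intron at 16 °C and 4 regions at 25 °C. AT5G02720 had no region at 16 °C and 23.5% covered at 25 °C, but all 379 covered bp lay where AT5G02710, on the opposite strand, overlaps it, so they cannot be told apart by gene. The same held for AT5G10695, whose 51 covered bp at 25 °C all lay in its overlap with AT5G10700. AT3G53490 had 38.4% and 33.4%, an order that turned in its first 1000 bp and with regions wider than 150 bp. AT3G01060, which is among the DEGs of the study, had 31.2% and 38.6%.

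AT5G12950 and AT5G12960 are neighbouring genes that share a product name and the DUF1680 domain, and repeated 50-base windows made up 17.7% and 19.8% of them, the highest shares of the group. AT5G12950 had 9.47% and 12.6% covered and AT5G12960 had no region. AT1G68325 had none either. In SAMBA the cover was 11.99% and 10.5%, in AT3G57320 22.9% and 21.6%, and in AT2G45060 33.3% and 29.0%. AT1G48450, AT3G17800 and AT5G04090 had differences of 21.8, 7.35 and 17.8 points.

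Other genes of protein synthesis were set beside the synthetases by product words. Of 72 other genes with tRNA in their product name, 63 were marked in each list, with a median difference of 6.92 points. Translation initiation factors were marked in 52 of 56 genes and elongation factors in 31 of 37, in each list, with median differences of 3.08 and 5.95 points. The 2 genes that the words found for the glutamyl-tRNA(Gln) amidotransferase, an enzyme of several subunits that makes glutaminyl-tRNA in organelles by a route without a glutaminyl-tRNA synthetase, were marked in each list. Ribosomal protein genes had 308 and 310 of 341 marked, with a median cover of 37.8% and 44.9% and a median difference of 5.99 points. The 279 pentatricopeptide repeat genes, most of whose proteins bind organellar RNA, had 238 and 249 marked and a median difference of 6.77 points. All 64 members, likewise taken by product words, had a median difference of 6.27 points. The 10.8 points are those of the 35 synthetases, picked from them by note after the data were seen. Whether these values differ was not tested.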

How the data were processed

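The authors mapped reads to TAIR10 (Bowtie2 per the submitters' processing notes, Bowtie in the methods, with no version) and called regions with DANPOS2 Dpeak, extending reads to 150 bp and pooling the samples of a temperature. Nothing in the sources states if the H3 samples were subtracted or used as input. The deposited columns hold positions in steps of 10 bp, the region signal (height, the highest read coverage, beside its sum) and −log10 p for that height. Depth per sample is unknown, and pooling leaves no spread between samples. No interval or test is therefore given.

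Gene bodies came from RefSeq TAIR10.1, whose nuclear chromosomes have the TAIR10 lengths. Cover and marking were computed with Python 3.11.15, numpy 2.4.6 and pandas 2.3.3, and the scripts were tested on simulated data. Paralog coding sequences were aligned with Biopython, and 50-base windows were counted in both strands of the 5 nuclear chromosomes. Printed sequences are from the RefSeq TAIR10.1 genome.

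Members and gene lists were chosen with earlier results of these data known. Roles were read from annotation notes. Named genes were the 5 largest differences each way, the 5 highest mean covers, the 5 widest regions, members marked in 1 list only or in neither, OVA genes, and members of the study's DiS and DEG lists. The other members were named to account for all, after their values were seen. Alternatives were other region filters (by −log10 p, width or equal numbers of the tallest), a stricter overlap, the first 1000 bp, genes of at least 2000 bp, genes that overlap no other, members whose product names an amino acid, and 3 added after seeing the data.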

Additional observations from a re-analysis of the deposited data

How the results depend on the processing

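No paired analysis was possible because each deposited list pools the samples of a temperature, so shared replicate letters could not be used, and for the same reason no sample could be left out. With regions above the median −log10 p of their list, the order of the marked counts turned, with 48 members marked at 16 °C and 47 at 25 °C. These were 75% and 73.4% of the members, beside 43.5% and 46.8% of all genes. In every alternative run, members higher at 25 °C outnumbered those lower, and the median difference stayed above 0. Over all genes, too, more were higher than lower in each of these runs. The median over all genes was 0, but 3.92 points in genes of at least 2000 bp. The median difference of the members was 6.27 points, and 3.93 points with that filter. Members lower at 25 °C numbered 11 (17.2%, beside 17.2% of all genes). With regions wider than 150 bp they numbered 7 (10.9%, beside 10.7%), and in gene bodies cut to 1000 bp 17 (26.6%, beside 17.6%). Of the 49 members of at least 2000 bp, 7 were lower (14.3%, beside 19.7% of all genes of that length). Of the 43 members that overlap no other gene, 5 were lower (11.6%, beside 16.0% of all such genes). Of those 43, 31 were marked at 16 °C (72.1%) and 36 at 25 °C (83.7%), beside 50.9% and 54.1%. The cause of these differences was not tested. The alternatives that follow were chosen after seeing the data. With the 35 synthetases only, 32 and 34 were marked, 29 were higher and 5 lower, and the median difference was 10.8 points. With 25 further genes whose note gives a tRNA ligase activity, the median was 3.08 points over 89 genes. A floor of 204.7 was set on region height at 25 °C, the lowest height in that list times 1.14, the ratio of nuclear signal shares. With it 43 members were higher (67.2%, beside 45.0% of all genes) and 13 lower (20.3%, beside 17.9%). This floor drops low regions whole and leaves the edges of the others as called, so it cannot allow for an effect of that ratio on width. Of the 57 members with a difference, 39 had the opposite sign in none of the 6 settings of region filter and gene part, and 18 had it in at least 1. These include, beside those named in the report for it, SAMBA, SYCO, EMB2761, AT1G44835, AT2G35080, AT2G45060, AT4G23620, AT4G39280, AT5G02680, AT5G04090 and AT5G12950. Among the 39, some had no difference in part of the settings. The difference was 0 in 5 settings for AT1G17960 and in 3 for NS2 and AT3G42723. It was 0 in 2 settings for AT1G27160 and AT3G23145 and in 1 for AT5G10880. No such count over all genes is given. Depth per sample, which would limit narrow regions, is unknown.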

Other observations

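The product-name rule leaves out 25 genes whose notes give a tRNA ligase activity. In each list 16 of them (64%) were marked, beside 56% of all genes at 16 °C and 59.5% at 25 °C. Their median difference was 0 points, as over all genes. The 25 include enzymes for the amino acids that the rule misses, chosen here for that role after their values were seen. OVA4, an organellar tryptophanyl-tRNA synthetase, was covered over 29.3% at 16 °C and 31.6% at 25 °C. AT3G04600, annotated with the same activity, had 39.6% and 31.4%. OVA6, an organellar prolyl-tRNA synthetase, had 45.9% and 45.3%, and AT3G62120, also for proline, had 33.0% and 35.7%. OVA8, a class II asparaginyl-tRNA synthetase of organelles, had 32.7% and 51.1%, where its relative NS2 among the members had 0 and 1.96%. SYNC3, which has the same product name as OVA8, went the other way, with 26.3% and 20.5%. GCN2, a kinase that senses uncharged tRNA and carries a domain related to histidyl-tRNA synthetase, had 28.8% and 37.8%. The other 9 of the 25 had no region in either list.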
